A study of Arabidopsis thaliana with 15 samples.

Results

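Arabidopsis thaliana roots facing salt meet a lack of available water as well as sodium and chloride ions, whereas mannitol at a like osmotic strength brings the first without the second, and flg22, a peptide from bacterial flagellin, calls up pattern-triggered defense. Genes that respond to salt and not to the other cues are therefore usually sought as candidates for the ionic part of the salt response. Known salt responses of roots include calcium signals, abscisic acid signaling and sodium export, and several of the gene families below are known for roles in hormone synthesis, sulfur assimilation or membrane traffic.

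The genes described here were picked as raised by salt only. Each gene's counts were turned into CPM (counts divided by the total of the library and multiplied by 1000000), and L was the log2 of the mean treated CPM plus 1 over the mean control CPM plus 1. A gene was a member if L for Salt against Mock was at least 1.5 with all 3 Salt libraries above all 3 Mock libraries, and if L for Mannitol against the Mannitol control and L for flg22 against Mock both lay within 0.4 of 0. Of 24618 genes in the table, 53 were members. The salt step alone took 786 genes, all of them with separate libraries, the mannitol band left 63 of these and the flg22 band 53. Of the 786, 695 had a mannitol L above 0.4 and 28 one below -0.4. Because these levels chose the members, the values below from the same libraries are a description and carry no test.

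RNA was sequenced from Col-0 plants in 5 groups of 3 libraries. Salt (150 mM NaCl), flg22 (250 nM by the labels) and Mock form one set, and Mannitol (300 mM) and its own Mannitol control another. For flg22 the study's text gives 1 μM for its stress treatments, in the section that also reports the RNA sequencing, and in its imaging methods. The study's methods give whole roots of seedlings 6 days old, pooled within each sample and collected after 3 h of stress, while the labels call the tissue whole seedling. The design text gives collection at 0 and 3 h without saying which libraries belong to which time, so whether Mock and the Mannitol control were taken at 0 or 3 h is not known here. In the study's imaging experiments salt and flg22 were given in liquid medium and mannitol on plates, so between the Mannitol control and Mock the medium and the experiment cannot be told apart. The labels do not say whether the 3 samples of a group were grown separately, so the spread between them may be technical.

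Libraries held 6094503 to 13943645 counts, and 3 counts, the limit that a count of 0 allows, stood for 0.215 to 0.492 CPM. Summed over 25 leaf photosynthesis markers, levels were 164 to 304 CPM in Salt, 337 to 419 CPM in Mannitol, 351 to 398 CPM in Mannitol control, 235 to 623 CPM in flg22 and 336 to 457 CPM in Mock. None of 23 root markers was at 0 in any group, and their sum was 5147 to 5521 CPM in Salt, 6399 to 7294 CPM in Mannitol, 12290 to 13220 CPM in Mannitol control, 5981 to 6487 CPM in flg22 and 5952 to 6156 CPM in Mock. PYK10, a root beta-glucosidase, had a mean of 11379 CPM in the Mannitol control against 4091 CPM in Mock, which is more than the whole gap between the sums. Without it the sum of the other 22 root markers was 1174 to 1218 CPM in Salt, 631 to 655 CPM in Mannitol, 1212 to 1281 CPM in Mannitol control, 1795 to 2231 CPM in flg22 and 1922 to 2014 CPM in Mock, so it was lower in the first 3 groups than in flg22 and Mock. The part of these markers in the members' levels was not tested, and in bulk RNA fewer cells of a type and less RNA per cell cannot be told apart.

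The label "salt only" did not describe most of the 53 genes once the second untreated group was read beside the first. The mean of the Mannitol control was above that of Mock in 51 of 53 members, against 47.9% of all genes, and all 3 Mannitol control libraries lay above all 3 Mock libraries in 47 members, against 22.2% of all genes. L for the Mannitol control against Mock was at least 1.5 in 28 members, against 1.9% of all genes, and at least 1 in 37, against 4.0%. It was within 0.4 of 0 in only 4, a band that held 71.0% of all genes. The median of this L over the members was 1.53, beside -0.01 over the 18484 genes tested for salt. It was 0.82 over the 786 genes of the salt step, and 0.62 over the 391 genes with L of at least 1.5 in both salt and mannitol. Both comparisons used the same Mock libraries, so a low Mock level entered both. Most members were thus low in Mock and flg22 and high in the other 3 groups, and the flat mannitol response was one between 2 high groups.

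**Figure D1:**
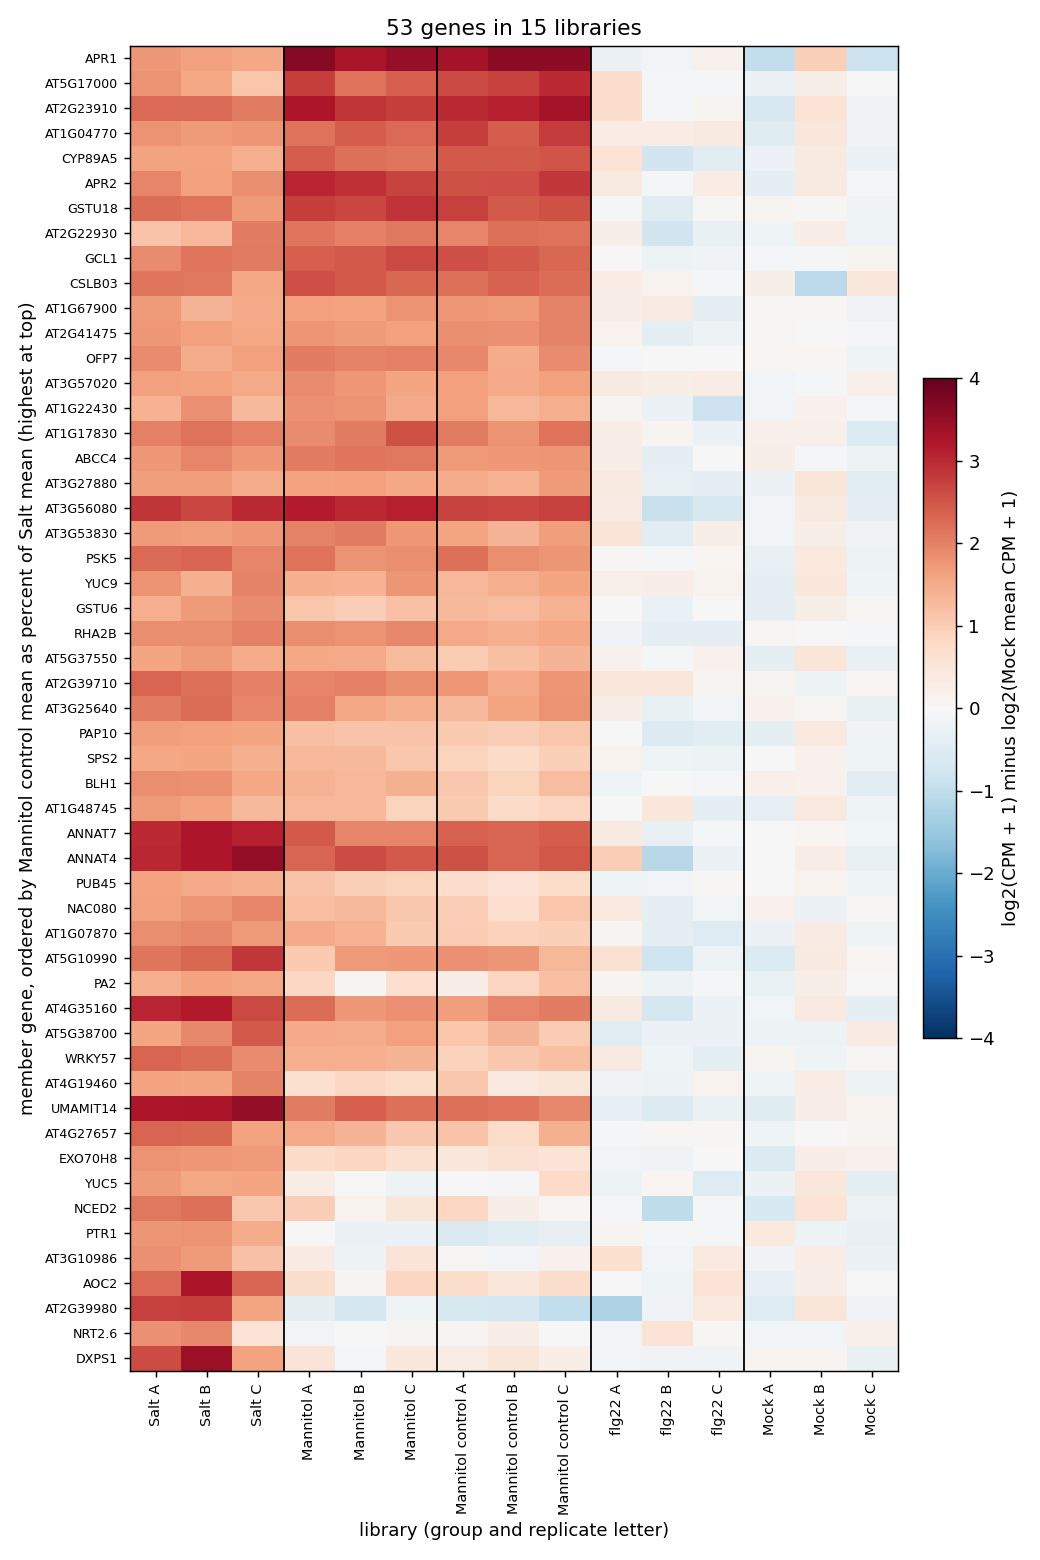
Level of each of the 53 members (rows) in each of the 15 libraries (columns, by group), as log2(CPM + 1) minus the log2 of the Mock mean plus 1, with red for higher and blue for lower. Rows run from the member with the highest Mannitol control mean relative to Salt (APR1, 365%) at the top to the lowest (DXPS1, 8.03%) at the bottom, and only the bottom rows are near white in both mannitol groups.

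By edgeR's quasi-likelihood test over all genes, 52 of 52 members tested were called higher in Salt than in Mock, where 9.59% of all genes tested were (adjusted p under 0.05, and a log2 fold of 1 or more), a count that the rule fixes. NRT2.6 was too low to be tested. Between the Mannitol control and Mock, 39 of 48 members tested were called higher by the same criteria, where 13.4% of all genes were called in either direction and 6.60% were called higher. Without the fold criterion 43 were called higher, beside 20.9% of all genes, and 1, AT2G39980, lower, beside 21.6%. For Mannitol against its control, at adjusted p under 0.05 with no fold criterion, 23 of 50 members tested were called, all higher, beside 52.1% of all genes in either direction and 26.0% higher. Fitted log2 fold changes of those 23 were between 0.25 and 0.62, and nothing is read from this count, since the band used the same libraries. For flg22, 0 of 43 members tested were called by edgeR, beside 3.68% of all genes. At an unadjusted p under 0.05 edgeR gave 1 member, and DESeq2 called 1, in both cases AT3G57020.

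The salt response exceeded the mannitol response by at least 1 on the log2 scale, with an adjusted p under 0.05 for the interaction term, in 51 of 52 members tested, beside 9.29% of all genes in either direction and 5.23% in this direction. The exception was APR1, whose Mock libraries stood at 10.2, 42.3 and 11.2 CPM. The rule used these libraries, so nothing is read from that count. On the CPM scale the median L of all genes tested was -0.16 for salt and -0.14 for mannitol, against -0.01 and -0.02 for the fold changes that edgeR fitted after TMM scaling, so a gene at a mannitol L of 0 stood slightly above the middle of the table. With TMM-scaled library sizes in the rule 56 genes were members, of which 39 were among the 53.

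**Figure D2:**
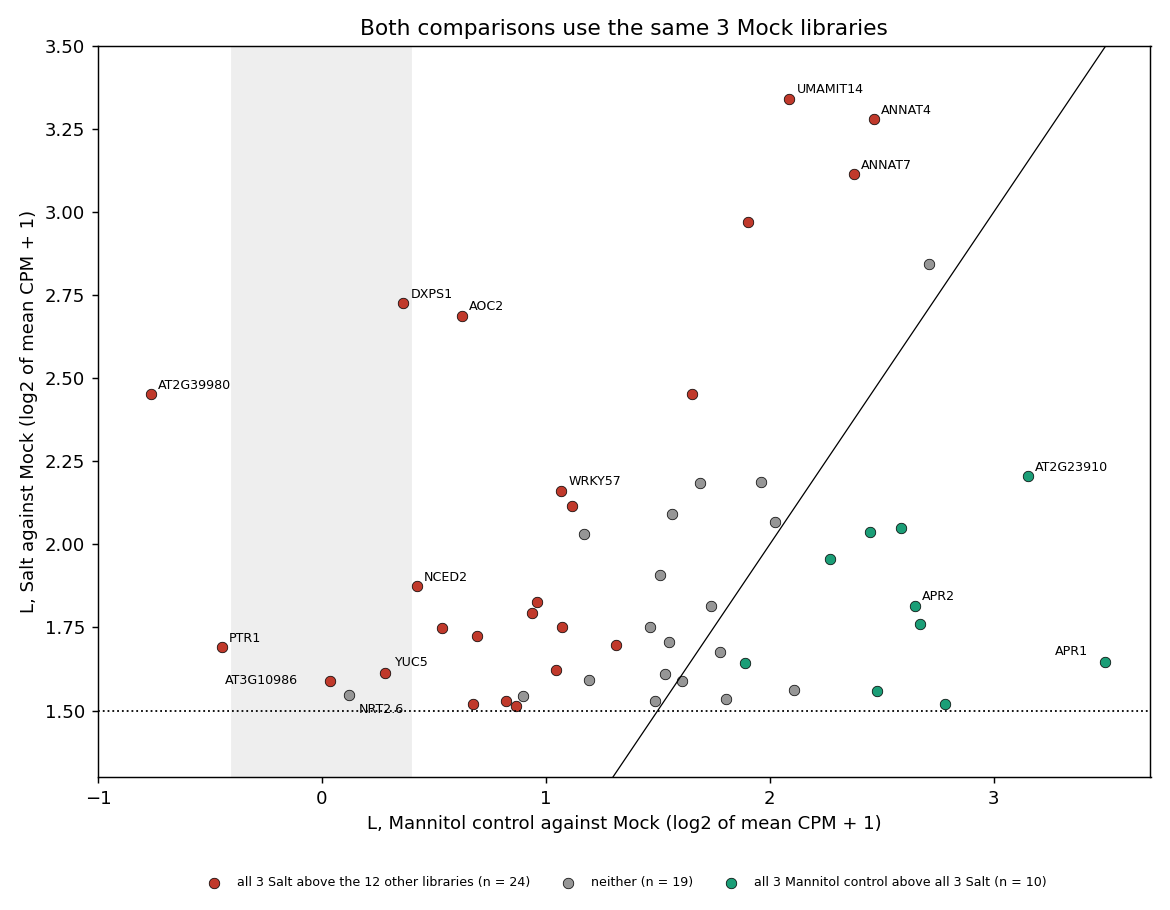
L of Salt against Mock (y axis) and of the Mannitol control against Mock (x axis) for the 53 members, each on the log2 scale of mean CPM plus 1. The grey band marks L within 0.4 of 0 on the x axis, the dotted line the salt threshold of 1.5 and the solid line equal values, and 14 members lie to the right of it.

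Relative to Salt, the members fell into 3 sets by the order of their libraries. In 24 members all 3 Salt libraries lay above all 12 others, a pattern found in 3.0% of all genes. That share is not a like comparison, since the rule put Salt above Mock in every member. Salt also lay above all flg22 libraries in 52 of 53 members, beside 18.3% of all genes. In 10 members (18.9%) all 3 Mannitol control libraries lay above all 3 Salt libraries, a pattern found in 32.5% of all genes. The remaining 19 showed neither pattern. The Mannitol control mean was between 8.03% and 76.3% of the Salt mean in the first set, between 119% and 365% in the second and between 8.26% and 149% in the third. Over all 53 the median was 68.8%, beside 19.6% in the 391 genes raised in both salt and mannitol.

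A level that was high in Salt and low in all other groups was found for a handful of members. DXPS1 (AT3G21500, chr3:7573560-7576721, minus strand, in the TAIR10.1 assembly that holds for every position given here) is annotated as a 1-deoxy-D-xylulose 5-phosphate synthase, the enzyme type that opens the plastid isoprenoid pathway. It had 6.47, 12 and 2.75 CPM in Salt, 0.76, 0.175 and 0.629 CPM in Mannitol, 0.508, 0.717 and 0.475 CPM in Mannitol control, 0.129, 0.117 and 0.114 CPM in flg22 and 0.328, 0.327 and 0 CPM in Mock. As counts this was 59, 121 and 24 in Salt and 2, 2 and 0 in Mock, so Salt was widely spread, yet even its lowest library was above all 12 others.

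AOC2 (AT3G25770, chr3:9406669-9408071, plus strand) encodes an allene oxide cyclase, which acts in jasmonate synthesis. It had 4.93, 10.9 and 5.28 CPM in Salt, 1.04, 0.349 and 1.26 CPM in Mannitol, 1.02, 0.717 and 1.03 CPM in Mannitol control, 0.259, 0.117 and 0.800 CPM in flg22 and 0, 0.49 and 0.246 CPM in Mock. The lowest Salt library held 4.93 CPM and the highest of the 12 others 1.26 CPM. Among its paralogs L for salt was 0.68 for AOC1, 0.12 for AOC3 and -0.46 for AOC4. AOC1 was near the limit of detection, where the pseudocount keeps L small. It had 0.438, 1.48 and 0.803 CPM in Salt, above all 12 other libraries, the highest of which held 0.327 CPM.

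AT2G39980 (chr2:16687673-16690182, minus strand), annotated as an HXXXD-type acyltransferase, had 81.7, 83.9 and 36.4 CPM in Salt, 8.64, 6.72 and 9.99 CPM in Mannitol, 7.12, 6.6 and 5.38 CPM in Mannitol control, 4.27, 10.4 and 15.3 CPM in flg22 and 7.71, 16.3 and 10.4 CPM in Mock. It was the only member called lower in the Mannitol control than in Mock, with L of -0.76, and its Salt C library was well below Salt A and Salt B. Of its sequence, 12.7% of windows of 100 bases are shared with an overlapping gene, and as the libraries were not stranded such counts are uncertain. PTR1 (AT3G54140, chr3:20045603-20048745, minus strand), a plasma membrane transporter of dipeptides and tripeptides, had 168, 170.2 and 139 CPM in Salt, 49.3, 41.4 and 41 CPM in Mannitol, 32, 35.3 and 38.7 CPM in Mannitol control, 51.9, 46.3 and 45.9 CPM in flg22 and 63.8, 42.5 and 39.3 CPM in Mock. Unlike the genes above it was well expressed in every group, with Salt above the 12 other libraries, which ranged from 32.0 to 63.8 CPM.

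YUC5 (AT5G43890, chr5:17648576-17650375, minus strand) encodes a YUCCA flavin monooxygenase, of the family that makes auxin from indole-3-pyruvate. It had 11.1, 9.78 and 10.09 CPM in Salt, 3.51, 2.71 and 2.2 CPM in Mannitol, 2.63, 2.58 and 5.3 CPM in Mannitol control, 2.2, 2.92 and 1.6 CPM in flg22 and 2.13, 4.08 and 1.89 CPM in Mock. The libraries of the other 4 groups overlapped, and none exceeded 5.30 CPM. NCED2 (AT4G18350, chr4:10142255-10144646, plus strand) is a 9-cis-epoxycarotenoid dioxygenase, the enzyme type that commits carotenoids to abscisic acid. Its levels were 7.67, 8.2 and 3.21 CPM in Salt, 2.94, 1.22 and 1.81 CPM in Mannitol, 2.54, 1.43 and 1.11 CPM in Mannitol control, 0.905, 0 and 0.914 CPM in flg22 and 0.328, 1.96 and 0.739 CPM in Mock. The lowest Salt library stood only slightly above the highest Mannitol library.

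AT3G10986 (chr3:3444077-3445772, minus strand), a LURP-one-like protein of unknown role, had 4.16, 3.76 and 2.29 CPM in Salt, 0.855, 0.262 and 1.1 CPM in Mannitol, 0.508, 0.359 and 0.633 CPM in Mannitol control, 1.29, 0.35 and 0.914 CPM in flg22 and 0.328, 0.817 and 0.246 CPM in Mock. NRT2.6 (AT3G45060, chr3:16477561-16479559, minus strand), of the high-affinity nitrate transporter family, had 2.85, 3.06 and 0.573 CPM in Salt, 0, 0.0873 and 0.157 CPM in Mannitol, 0.169, 0.287 and 0.0791 CPM in Mannitol control, 0, 0.583 and 0.114 CPM in flg22 and 0, 0 and 0.246 CPM in Mock. These NRT2.6 values rest on 26, 31 and 5 counts in Salt and 0, 0 and 3 in Mock, and the lowest Salt library was below the highest flg22 library, so outside Salt A and Salt B the gene was near the limit of detection.

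**Figure D3:**
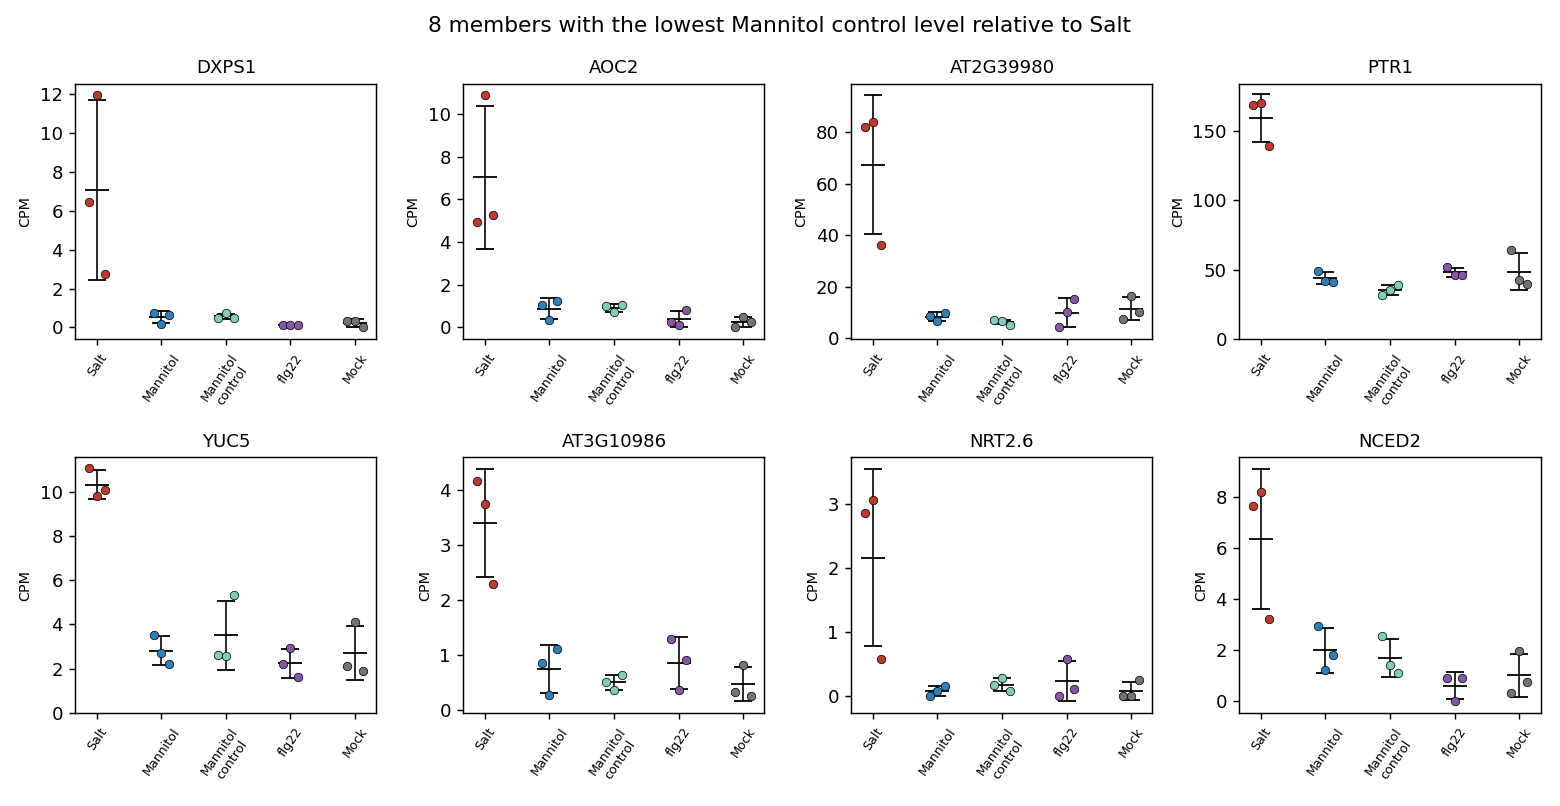
CPM in each library (points), with mean and SD (bars, n = 3), of the 8 members whose Mannitol control level was lowest relative to Salt. Salt lies above the other 4 groups in each panel except for the lowest NRT2.6 library, and the Salt points of DXPS1, AT2G39980 and NCED2 are spread widely.

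The 4 members with the largest salt L were high in both mannitol groups as well. UMAMIT14 (AT2G39510, chr2:16491143-16493343, minus strand), an amino acid exporter of the UMAMIT family, had the largest L, 3.34. It had 148, 153 and 181 CPM in Salt, 65.6, 81.7 and 73 CPM in Mannitol, 72.1, 68.7 and 59.1 CPM in Mannitol control, 11.6, 9.8 and 12.1 CPM in flg22 and 10.3, 18 and 16.4 CPM in Mock. Its mean in Salt was 10.8 times that in Mock, while its mean in the Mannitol control was 4.47 times that in Mock and 41.6% of that in Salt. No Salt library overlapped a mannitol library, and Mannitol overlapped its control.

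Annexins are calcium-dependent proteins that bind membrane phospholipids. ANNAT4 (AT2G38750, chr2:16196265-16198832, minus strand) had 84.3, 99.1 and 120.3 CPM in Salt, 52.1, 63.6 and 56.2 CPM in Mannitol, 60.8, 52.3 and 58.1 CPM in Mannitol control, 19.7, 3.85 and 8.0 CPM in flg22 and 9.35, 11.6 and 7.63 CPM in Mock. ANNAT7 (AT5G10230, chr5:3209497-3211483, minus strand) had 149, 176 and 163 CPM in Salt, 103, 72.3 and 72 CPM in Mannitol, 96.6, 94.7 and 100.4 CPM in Mannitol control, 23.3, 14.4 and 17 CPM in flg22 and 18.21, 19 and 16.6 CPM in Mock. For both genes the 3 levels were ordered in the same way, with Salt highest, the mannitol groups overlapping each other below it, and flg22 and Mock overlapping each other far below.

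Another annexin, ANNAT3, lies next to ANNAT4 on chromosome 2 and missed the rule. Its levels were 41.5, 49.7 and 60.0 CPM in Salt, 20.8, 20.9 and 18.25 CPM in Mannitol, 27.4, 26.2 and 31 CPM in Mannitol control, 8.8, 2.45 and 3.31 CPM in flg22 and 6.73, 5.23 and 4.84 CPM in Mock, with a mannitol L of -0.48 against the limit of -0.4. Among 6 annexins listed, 5 were tested, and 3 were called higher in Salt than in Mock and 3 in the Mannitol control than in Mock, a family that was looked at after its values were seen. ANNAT1, the most abundant, had a salt L of -0.10 and ANNAT2 one of 0.26. For the gene lists below a call uses the same criteria, which 9.59% of all genes met as higher and 7.84% as lower in Salt, 8.98% as higher and 7.46% as lower in Mannitol, and 6.60% as higher and 6.79% as lower in the Mannitol control against Mock. In the list of calcium signaling and touch genes, where ANNAT4 was the only member, 7 of 24 genes tested were called higher and 5 lower in Salt. In Mannitol 9 of 25 were called higher and 2 lower.

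AT4G35160 (chr4:16730703-16732923, minus strand), annotated as an O-methyltransferase, had 275, 297 and 204 CPM in Salt, 154, 109 and 118 CPM in Mannitol, 105, 126 and 137 CPM in Mannitol control, 41.1, 19.1 and 27 CPM in flg22 and 29.9, 41.5 and 25 CPM in Mock. Per kilobase of exon it was at 167 CPM in Salt, second among the members to AT3G57020, a phosphotriesterase-like protein at 351 CPM per kilobase. AT3G57020 itself had 563, 542 and 508 CPM in Salt, 666, 599 and 529 CPM in Mannitol, 559.8, 509 and 562 CPM in Mannitol control, 226, 212 and 219.8 CPM in flg22 and 163, 167 and 203 CPM in Mock. Its Salt and Mannitol control libraries overlapped, Mannitol A and Mannitol B were above both, and all 9 libraries of these groups were above those of flg22 and Mock.

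The member with the highest Mannitol control mean relative to Salt was APR1, a sulfur assimilation gene, and APR2 of the same family was sixth. They encode adenosine 5'-phosphosulfate reductases, which catalyse the reduction of activated sulfate and control much of the flux in the pathway. APR1 (AT4G04610, chr4:2324878-2327064, plus strand) had 72.5, 69 and 63.9 CPM in Salt, 278, 211 and 248 CPM in Mannitol, 221, 264 and 265 CPM in Mannitol control, 18, 19.7 and 24.1 CPM in flg22 and 10.2, 42.3 and 11.2 CPM in Mock. Both mannitol groups lay above all Salt libraries, Salt lay above flg22 and Mock, and Mock B was far above Mock A and Mock C.

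APR2 (AT1G62180, chr1:22975530-22977885, minus strand) had 39.2, 31.1 and 36.4 CPM in Salt, 84.6, 78.3 and 66.3 CPM in Mannitol, 59.6, 60.5 and 72.2 CPM in Mannitol control, 12.4, 8.99 and 11.9 CPM in flg22 and 6.89, 12.3 and 9.03 CPM in Mock. Its Mannitol control was at 180.2% of Salt. An overlapping gene shares 41.5% of its windows of 100 bases, so its counts are uncertain. The remaining reductase, APR3, had 121, 105 and 127 CPM in Salt, 410.0, 317 and 333 CPM in Mannitol, 517, 582 and 598 CPM in Mannitol control, 62.1, 40.8 and 51.4 CPM in flg22 and 32, 54.7 and 32.9 CPM in Mock. It was no member because its mannitol L was -0.68, but as for APR1 both mannitol groups were above Salt.

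In the list of iron, zinc and sulfate genes 8 of 31 genes tested were called higher and 11 lower in Salt, 3 higher and 13 lower in Mannitol, and 9 of 30 higher and 5 lower in the Mannitol control against Mock. AT1G04770 (chr1:1336274-1337849, minus strand), a tetratricopeptide repeat protein, also had its highest levels in the Mannitol control, with 22.9, 21.5 and 22.4 CPM in Salt, 29.6, 35.9 and 31.7 CPM in Mannitol, 46.2, 35.8 and 46.5 CPM in Mannitol control, 7.5, 7.35 and 7.77 CPM in flg22 and 3.94, 8.5 and 5.17 CPM in Mock. It was the member nearest the lower mannitol limit, and 13.2% of its windows are shared with VAMP726, which overlaps it.

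Glutathione transferases of the tau class join glutathione to other molecules. GSTU18 (AT1G10360, chr1:3395551-3396953, minus strand) had 14.1, 13.3 and 9.4 CPM in Salt, 20.9, 19.5 and 22.8 CPM in Mannitol, 20.4, 16.6 and 17.9 CPM in Mannitol control, 2.07, 1.28 and 2.29 CPM in flg22 and 2.46, 2.29 and 1.89 CPM in Mock. GSTU6 (AT2G29440, chr2:12619630-12621231, minus strand) had 64, 76.4 and 85.4 CPM in Salt, 49.5, 45.2 and 52.1 CPM in Mannitol, 57.2, 54.8 and 60.2 CPM in Mannitol control, 23, 18.6 and 22.7 CPM in flg22 and 17.39, 26.6 and 23.56 CPM in Mock. The order of the groups differed between them, since the mannitol groups were above Salt for GSTU18 and below Salt for GSTU6. For GSTU6 24.2% of windows of 100 bases are shared with AT2G29430, which overlaps it, so its counts are uncertain. Of 24 tau class genes tested, 9 were called higher and 3 lower in Salt, and 11 of 23 higher and 2 lower in the Mannitol control against Mock.

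The other members in which all Mannitol control libraries were above Salt had varied annotations. AT2G23910, a Rossmann-fold protein, averaged 116 ± 8.53 CPM in Salt, 197 ± 33.7 CPM in Mannitol, 225 ± 26.6 CPM in Mannitol control, 29.97 ± 9.33 CPM in flg22 and 24.3 ± 10.6 CPM in Mock (SD, n = 3 each). AT5G17000, a zinc-binding dehydrogenase, averaged 55.2 ± 12.9 CPM in Salt, 107 ± 22.4 CPM in Mannitol, 134 ± 16.6 CPM in Mannitol control, 22.2 ± 7.3 CPM in flg22 and 18.6 ± 3.25 CPM in Mock. CYP89A5, a cytochrome P450, averaged 111 ± 7.09 CPM in Salt, 182 ± 19.5 CPM in Mannitol, 211 ± 5.37 CPM in Mannitol control, 34.6 ± 18.5 CPM in flg22 and 37 ± 9.71 CPM in Mock. The Mannitol control mean was 9.22 times the Mock mean for AT2G23910, 7.20 times for AT5G17000 and 5.70 times for CYP89A5. GCL1 (GCR2-like 1), CSLB03 (cellulose synthase-like) and AT2G41475 (embryo-specific protein 3) completed the set of 10, with Mannitol control means at 133%, 127% and 119% of Salt.

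**Figure D4:**
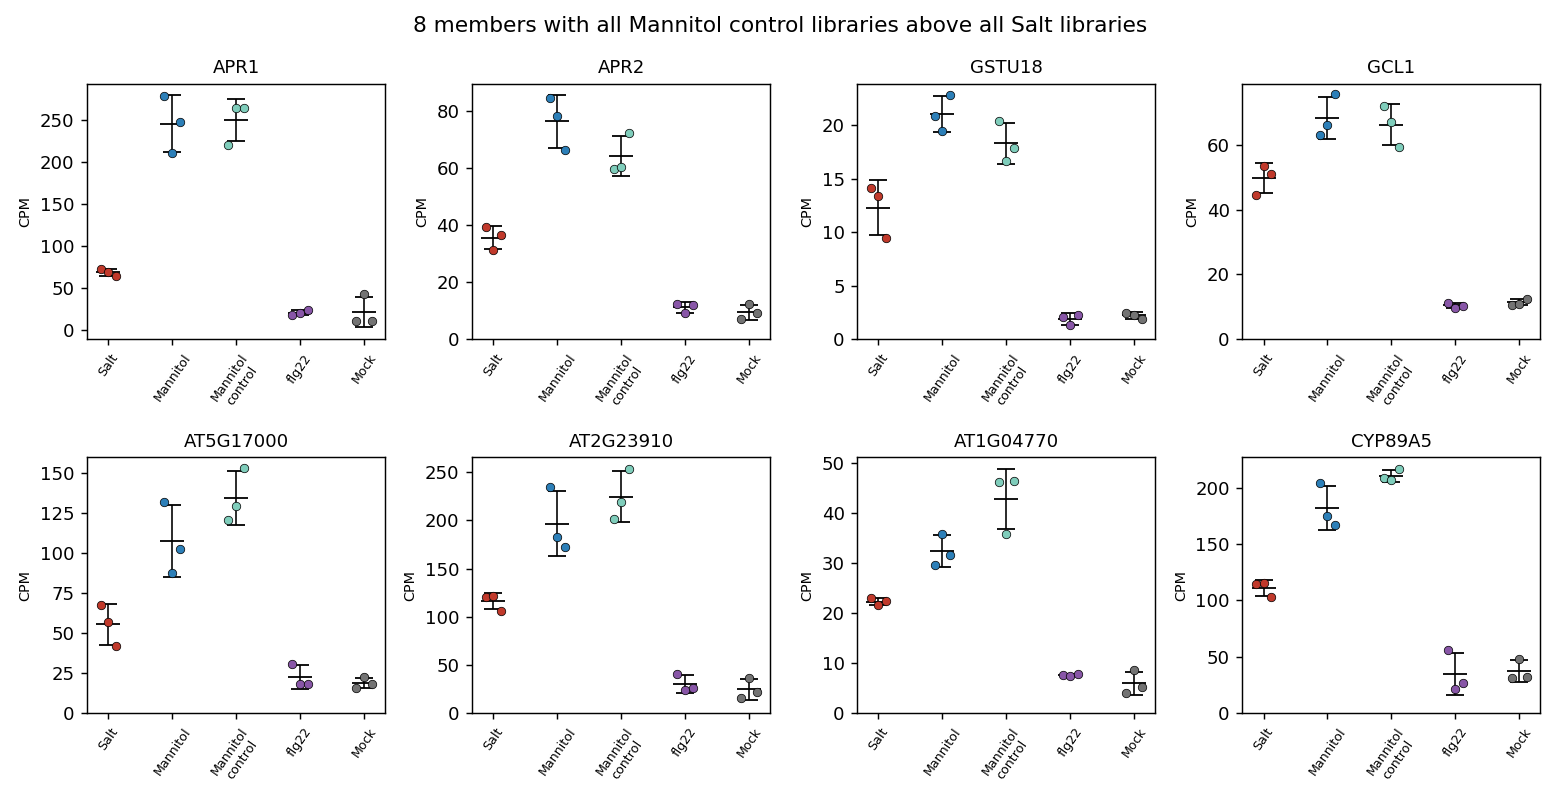
CPM in each library (points), with mean and SD (bars, n = 3), of the 8 members with the highest Mannitol control level relative to Salt among the 10 in which all 3 Mannitol control libraries exceeded all 3 Salt libraries. In each panel Salt lies between the mannitol groups above it and flg22 and Mock below it, and the high APR1 library of Mock is replicate B.

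Hormone genes among the members did not act as 1 group. YUC9 (AT1G04180, chr1:1104493-1106241, plus strand), another auxin synthesis gene, had 20.7, 15.5 and 23.5 CPM in Salt, 15.6, 15.2 and 20.1 CPM in Mannitol, 14.7, 16.1 and 17.7 CPM in Mannitol control, 6.08, 6.54 and 5.83 CPM in flg22 and 3.77, 7.35 and 4.51 CPM in Mock. Salt overlapped both mannitol groups, unlike for YUC5. In the auxin list, which holds both, 8 of 28 genes tested were called higher and 1 lower in Salt, and 1 of 27 higher and 7 lower in Mannitol. AT5G10990, a SAUR-like auxin-responsive gene, averaged 9.56 ± 2.69 CPM in Salt, 4.54 ± 1.38 CPM in Mannitol, 5.06 ± 1.1 CPM in Mannitol control, 0.914 ± 0.933 CPM in flg22 and 0.928 ± 0.573 CPM in Mock.

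PSK5 (AT5G65870, chr5:26351373-26352703, plus strand) encodes a precursor of phytosulfokine, a sulfated growth peptide. It had 32.7, 34.1 and 26.4 CPM in Salt, 30.7, 23.5 and 24.6 CPM in Mannitol, 31.7, 24.7 and 22.8 CPM in Mannitol control, 6.34, 5.83 and 6.4 CPM in flg22 and 4.76, 8.17 and 5.17 CPM in Mock. Salt and both mannitol groups overlapped, and all 9 of their libraries were above the 6 of flg22 and Mock. For abscisic acid, NCED2 was the only member of its family, and NCED3, the family member best known for stress, was no member since it had an L of 6.25 in salt and 3.92 in mannitol. In the list of abscisic acid and osmotic stress markers 29 of 31 genes tested were called higher in Salt and 30 of 31 in Mannitol and none was a member, which the mannitol band largely fixes. In the jasmonate list, which holds AOC2, 7 of 19 genes tested were called higher in Salt and 3 of 21 in Mannitol. In the list of sodium and potassium transport 4 of 27 genes tested were called higher and 3 lower in Salt. In Mannitol 7 of 27 were called higher and 3 lower. No member came from this list of 29 genes. With only 53 members among 24618 genes, nothing is read from that.

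Among regulators, WRKY57 (AT1G69310, chr1:26054275-26058383, minus strand), a WRKY transcription factor known from drought studies in Arabidopsis, had 139, 127 and 100.4 CPM in Salt, 74.5, 74.3 and 69.8 CPM in Mannitol, 50.8, 56.8 and 62.5 CPM in Mannitol control, 34.4, 23.5 and 20.1 CPM in flg22 and 28.6, 23.4 and 27.7 CPM in Mock. NAC080 (AT5G07680, chr5:2435795-2437661, plus strand), a NAC domain factor, had 74.2, 80.4 and 93.5 CPM in Salt, 54.7, 57.8 and 49.5 CPM in Mannitol, 46.8, 37.5 and 51.6 CPM in Mannitol control, 30.4, 18 and 21.4 CPM in flg22 and 26.1, 19.6 and 23.8 CPM in Mock. BLH1 (AT2G35940, chr2:15088762-15092415, minus strand), a BEL1-like homeodomain factor, had 83.9, 82 and 68.2 CPM in Salt, 59.9, 57.9 and 61.7 CPM in Mannitol, 48, 43 and 54 CPM in Mannitol control, 19.9, 22.8 and 21.7 CPM in flg22 and 25.8, 25.2 and 16.5 CPM in Mock. In these 3 genes the levels formed a staircase, with Salt above Mannitol, Mannitol mostly above its control, and the control above flg22 and Mock. For BLH1 28.0% of windows of 100 bases are shared with an overlapping gene. OFP7, an ovate family repressor, had a Mannitol control mean at 108% of its Salt mean.

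RHA2B (AT2G01150, chr2:100484-101566, plus strand), a RING-type ubiquitin ligase known as a positive regulator of abscisic acid signaling, had 41, 40.7 and 45.8 CPM in Salt, 41.2, 39 and 43.3 CPM in Mannitol, 32.4, 30.8 and 32.8 CPM in Mannitol control, 9.44, 8.05 and 8.0 CPM in flg22 and 11, 10.6 and 10.2 CPM in Mock. PUB45 (AT1G27910, chr1:9720733-9724800, minus strand), a U-box ubiquitin ligase, had 49.9, 46.1 and 43.6 CPM in Salt, 35.8, 30.9 and 29.6 CPM in Mannitol, 26.2, 23.59 and 26.7 CPM in Mannitol control, 13.7, 14.2 and 16 CPM in flg22 and 15.6, 17.5 and 13.7 CPM in Mock. Salt overlapped Mannitol for RHA2B and lay above it for PUB45. AT1G07870, a protein kinase, had its Mannitol control mean at 54% of Salt, and 22.4% of its windows are shared with an overlapping gene.

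Of the transporters not yet described, ABCC4 (AT2G47800, chr2:19574666-19580615, plus strand), an ATP-binding cassette protein of the multidrug resistance-associated group, had 215, 249 and 212 CPM in Salt, 266, 280.2 and 275 CPM in Mannitol, 208, 212 and 220.2 CPM in Mannitol control, 76.7, 48.2 and 63.4 CPM in flg22 and 74.3, 60.8 and 55 CPM in Mock. Its Mannitol libraries were the highest of the series, and Salt and the Mannitol control overlapped. SPS2 (AT1G17050, chr1:5828915-5831383, plus strand), which makes the solanesyl side chain of plastoquinone, had 76.2, 78.6 and 70.7 CPM in Salt, 65.3, 65 and 54.7 CPM in Mannitol, 48.2, 44.4 and 50.2 CPM in Mannitol control, 28.2, 22.4 and 22.3 CPM in flg22 and 25.3, 28.8 and 22.9 CPM in Mock. PAP10 (AT2G16430, chr2:7120372-7123079, minus strand), a purple acid phosphatase known from phosphate starvation, had 73, 71.5 and 68.9 CPM in Salt, 52.4, 50.7 and 51 CPM in Mannitol, 47.3, 45.3 and 49.7 CPM in Mannitol control, 22.9, 15.1 and 16 CPM in flg22 and 17.1, 29.9 and 20.4 CPM in Mock. Both had Salt above every other library, the mannitol groups next and flg22 and Mock lowest.

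In the 16 members not described so far the Salt mean was between 3.07 CPM for PA2, a peroxidase, and 49.9 CPM for AT3G27880. The transferases AT3G56080, AT4G19460 and AT2G22930 had Mannitol control means at 91%, 45.2% and 149% of Salt. The genes of unknown product AT3G25640, AT4G27657, AT1G17830, AT3G27880, AT5G37550 and AT1G48745 stood at 68.8%, 39.3%, 96.5%, 94.7%, 75% and 61.4%. AT2G39710 (aspartyl protease), AT5G38700 (cotton fiber protein), EXO70H8 (exocyst subunit), AT3G53830 (RCC1 family), AT1G67900 (NPH3 family), PA2 and AT1G22430 (zinc-binding dehydrogenase) stood at 69.1%, 47.5%, 36.7%, 88.6%, 122%, 48.6% and 97.3%.

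Within groups, some libraries recurred at the extremes of the members' values. Mock B was the highest Mock library in 34 of 53 members, against 37.2% of all genes, and Mannitol control C was the highest of its group in 34, against 31.9% of all genes. Salt C was the lowest Salt library in 31 members, against 31.1% of all genes, and flg22 A the highest of its group in 31, against 40.4% of all genes. The spread among the Mock libraries, as the SD in percent of the mean, had a median of 27.1% over the members and 10.8% over the genes tested. The median was also 26.9% over the genes of the salt step and 31.5% over those raised in both salt and mannitol. A wide Mock spread was thus not particular to the members. The spread among the Salt libraries had a median of 11.6% over the members and 11.9% over the genes tested. When each of the 15 libraries was left out in turn the rule gave between 43 and 62 genes. Of the 53, 19 stayed members every time, among them DXPS1, AOC2, PTR1, EXO70H8, GSTU6, GSTU18, BLH1, NAC080, ABCC4 and PSK5. The 34 lost at least once included UMAMIT14 (kept in 12 of 15), ANNAT4 (13), ANNAT7 and AT4G35160 (14 each) and APR1 (12). They also included NRT2.6, NCED2 and AT3G10986 (11 each), AT2G39980 (12) and YUC5 (14). The fewest of the 53, 38, were kept without Mock C.

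The thresholds cut through a continuous range of values. For salt, SPS2 (1.51), PUB45 (1.52) and AT5G17000 (1.52) lay just inside, and AT3G54830 (1.49), EXPA16 (1.49) and SAHH2 (1.48) just outside. At the upper mannitol limit AT3G53830 had 0.39, inside, and PHT4;2 0.40, outside by its unrounded value, and at the lower limit AT1G04770 had -0.39, inside, and AT4G28840 -0.42, outside. At the upper flg22 limit AT2G39710 had 0.34, inside, and AT1G61930 0.40, outside by its unrounded value, and at the lower limit UMAMIT14 had -0.38, inside, and AT2G17500 -0.41, outside.

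The members were also compared by what the rule did not use. Members had a median of 3 exons and an exonic length of 1709 bases, beside 5 exons and 1766 bases for all genes tested for salt and 3 exons and 1536 bases for the genes raised in both salt and mannitol. By annotated product, 7 of 53 were peroxidases, oxidoreductases or dioxygenases (13.2%, beside 4.5% of the table), 2 were glutathione transferases (3.8%, beside 0.3%), and none was a ribosomal, translation or RNA gene (beside 5.5%). Matched by keywords in the product name, WRKY57 and NAC080 were transcription regulators (3.8%, beside 6.1%), a count that leaves out BLH1 and OFP7, whose product names held none of the keywords. Chromosomes 1 to 5 held 13, 15, 10, 5 and 10 members, and no 2 members were next to each other. Chromosome 2 held 28.3% of the members and 15.5% of the genes of the table, and chromosome 4 held 9.4% and 15.4%.

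Sequence before the gene start was read in windows of 250 bases from the RefSeq genome and annotation (TAIR10.1). In all, 14 short motifs were searched on both strands in the windows of the 53 members and of 24617 genes of the table. CGCGT, the core that calmodulin-binding CAMTA factors bind, was found in 11 of 53 members (20.8%), in 7.3% of all genes and in 13.3% of the genes raised in both salt and mannitol. ACGTG, the core of the abscisic acid response element, was found in 14 of 53 (26.4%), in 23.3% of all genes and in 43.0% of the genes raised in both, and CACGTG, the G-box that contains it, in 7.5%, 6.8% and 21.0%. The dehydration response core CCGAC was found in 13.2%, 12.3% and 20.7%, and the W-box core TTGAC in 50.9%, 45.2% and 45.3%. For abscisic acid and dehydration motifs the members were thus near the table as a whole, and for CGCGT they were higher than it. A match is only a run of letters, 4 of the 53 windows overlap another gene, and no test was made.

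**Figure D5:**
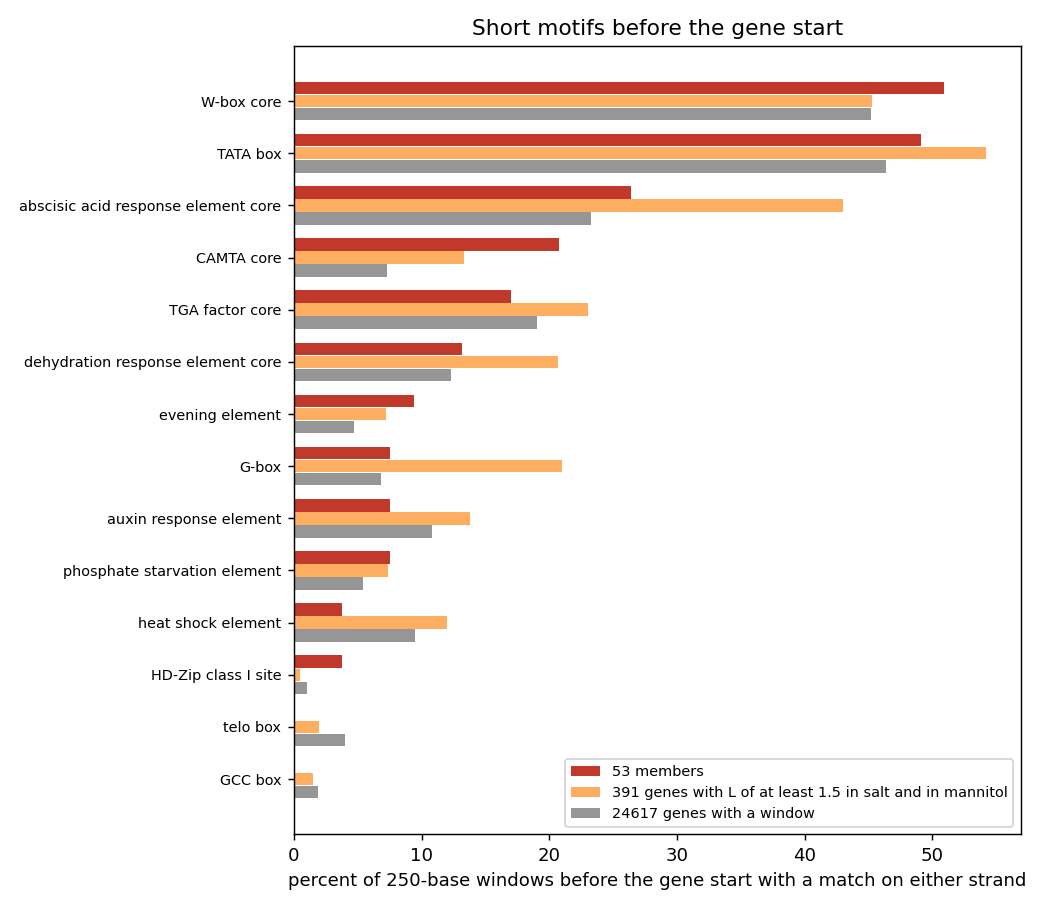
Share of windows of 250 bases before the gene start that hold each motif on either strand (x axis, percent), for the 53 members (top bar of each group), the 391 genes with L of at least 1.5 in both salt and mannitol (middle) and 24617 genes (bottom). The members' bar for the CAMTA core (20.8%) is longer than both others, and that for the abscisic acid response element core (26.4%) is close to the bar of all genes and shorter than that of the genes raised in both.

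The stretches that hold CGCGT in 9 of the 11 members are shown here because CGCGT was, of the 14 motifs, the one with the widest gap between the members and the table, with the matched letters in capitals (ACGCG is the same core read on the other strand) and each read 5′ to 3′ on the strand of its gene.
YUC9 (chr1:1104405-1104435, plus strand): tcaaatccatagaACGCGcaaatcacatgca
AT1G07870 (chr1:2432135-2432165, minus strand): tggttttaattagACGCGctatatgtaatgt
AT1G22430 (chr1:7919055-7919076, plus strand): ctattgtatatgtCGCGTgtca
EXO70H8 (chr2:12291099-12291129, minus strand): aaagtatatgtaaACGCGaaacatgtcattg
AT3G10986 (chr3:3445806-3445836, minus strand): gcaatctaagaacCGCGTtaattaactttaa
AT3G53830 (chr3:19940458-19940489, plus strand): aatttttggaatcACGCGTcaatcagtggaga
PA2 (chr5:2079164-2079194, minus strand): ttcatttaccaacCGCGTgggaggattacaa
NAC080 (chr5:2435545-2435575, plus strand): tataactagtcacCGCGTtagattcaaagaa
YUC5 (chr5:17650376-17650393, minus strand): aattagccttagaACGCG
The match began 5 bases before the annotated gene start in YUC5, 9 bases before it in AT1G22430 and 237 bases before it in NAC080. AT3G53830 holds the core on both strands in a run of 6 letters.

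The full windows of the other 2 members are shown because AT5G38700 holds the core at 2 places and AT4G27657 holds it on both strands just before a G-box.
AT4G27657 (chr4:13812739-13812988, plus strand): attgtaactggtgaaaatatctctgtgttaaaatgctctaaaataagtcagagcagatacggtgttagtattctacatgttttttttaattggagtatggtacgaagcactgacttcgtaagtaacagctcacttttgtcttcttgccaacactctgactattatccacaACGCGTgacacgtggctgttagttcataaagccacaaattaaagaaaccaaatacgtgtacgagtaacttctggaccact
AT5G38700 (chr5:15489343-15489592, plus strand): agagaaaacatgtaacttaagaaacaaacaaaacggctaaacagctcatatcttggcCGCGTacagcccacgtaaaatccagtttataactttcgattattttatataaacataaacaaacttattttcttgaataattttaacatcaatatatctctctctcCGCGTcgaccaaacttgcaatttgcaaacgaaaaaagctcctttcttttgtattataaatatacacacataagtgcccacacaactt
AT4G27657, of unknown product, had 5.48, 5.44 and 2.98 CPM in Salt, 2.75, 2.36 and 1.73 CPM in Mannitol, 1.86, 1.15 and 2.45 CPM in Mannitol control, 0.259, 0.35 and 0.343 CPM in flg22 and 0.164, 0.327 and 0.41 CPM in Mock. AT5G38700, annotated as a cotton fiber protein, had 4.05, 5.53 and 8.37 CPM in Salt, 3.89, 3.75 and 4.33 CPM in Mannitol, 2.71, 3.37 and 2.45 CPM in Mannitol control, 0.259, 0.467 and 0.457 CPM in flg22 and 0.492, 0.49 and 1.15 CPM in Mock. Of the 11 members with the core, the Salt libraries were above all 12 others in AT1G07870, EXO70H8, AT3G10986, AT4G27657, PA2, NAC080 and YUC5, and overlapped some of them in YUC9, AT1G22430, AT3G53830 and AT5G38700. Salt was above all 12 others in 24 of all 53 members (45.3%) and in 3.0% of all genes. A link between the core and this order was not tested.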

How the data were processed

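Counts of reads per gene were deposited by the authors as 1 table of 24618 genes and 15 libraries, without normalization. Per the study's methods, reads from nonstranded poly(A) libraries were trimmed with Trimmomatic and mapped to Araport11, duplicates were removed with Picard and reads were counted with HTSeq. The aligner and all versions are not given in the sources used here. Header names of the Mannitol control columns differ from the sample titles, and they were assigned as a group, since the labels hold only 2 untreated groups. All columns were used.

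CPM used column totals and L a pseudocount of 1. Fits of 3 against 3 libraries, and the interaction over 4 groups, used edgeR 4.0.16 (TMM, filterByExpr with a minimum count of 10, robust quasi-likelihood, Benjamini-Hochberg over all genes tested), with DESeq2 1.42.0 as an alternative, in R 4.3.3. Fits for salt, mannitol and the interaction were also run on simulated data. Those data held far fewer changed genes than were called here, and nothing above is read from that run. Depth was 6094503 to 13943645 counts per library, and limits from counts cover counting error only. Positions, products and sequences come from RefSeq TAIR10.1 by gene ID. Gene lists were written from general knowledge.

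Members were named by the size of their salt L, level, list, class, distance to a threshold and place in the Mannitol control, and the rest so that all 53 are accounted for. The members and lists were chosen with earlier results of these data known. Alternatives for scaling, pseudocount, band, threshold, filter, test, replicate block and each library left out were tried, and 3 on the use of the Mannitol control were chosen after seeing the data.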

Additional observations from a re-analysis of the deposited data

How the results depend on the processing

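The number of members by the rule was 53. It was 56 with TMM-scaled and 54 with upper-quartile-scaled library sizes, 33 with a band of 0.3, 165 with a salt L of at least 1 and 19 with a salt L of at least 2. Each of the 15 libraries left out in turn gave 43 to 62. With 3 further conditions, chosen after seeing the data, it fell to 4 when the Mannitol control also had to lie within 0.4 of Mock (DXPS1, AT3G10986, NRT2.6 and YUC5), to 5 when Salt also had to exceed the Mannitol control by an L of at least 1.5 (AT2G39980, AT3G10986, DXPS1, AOC2 and PTR1), and to 5 when Mannitol also had to lie within 0.4 of Mock. The members called in Mannitol numbered 23, but 15 with all 15 libraries in 1 fit and 0 with a log2 fold change of at least 1, and 12 to 24 with 1 library left out, the lowest without Mannitol control B. The members called in flg22 numbered 0, but 1 by DESeq2's Wald test, 1 with no count filter and 1 at an unadjusted p under 0.05, all AT3G57020, and 0 to 1 with 1 library left out (APR1 without Mock B and AT3G57020 without Mock C). With 1 library left out the members called numbered 51 to 53 in salt, 49 to 52 for the interaction and 36 to 43 for the Mannitol control against Mock. With the replicate letter as a block the counts were 51 in salt, 23 in mannitol, 0 in flg22, 50 for the interaction and 39 for the Mannitol control against Mock. Correlations of deviations between same-lettered libraries were between -0.21 and 0.07. Such values cannot exclude that libraries with the same letter were handled together. The cause of each change was not tested. A mean under 1 CPM was found in Mock for 9 members (17.0%, beside 24.8% of all genes). In both mannitol groups it was found for 4 (7.5%, beside 23.1%). Such levels rest on few counts.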
